A study of Mus musculus with 8 samples.

Results

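The genes described here are those whose transcripts were already lower after 2 days of doxycycline (Dox) in a mouse acute myeloid leukaemia in which PU.1 was being restored. A gene was a member when the lower of the 2 untreated libraries was at least 1.4 times both day 2 libraries and the untreated mean was at least 5 CPM, which are counts scaled to a common library size with TMM factors. By this rule 100 genes were members, of 12330 genes tested and 12830 in the tables, or 0.811% of the genes tested. The same values chose the members, so their difference between day 2 and untreated cells is given as a description without a test. Of the members 97 were protein coding, 1 was annotated as a long noncoding RNA and 2 IDs had no symbol.

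RNA was sequenced from bone marrow cells of C57BL/6 mice carrying AML410, a single leukaemia with a monosomal karyotype that is p53-/- and expresses a short hairpin RNA against PU.1 (shPU.1) linked to green fluorescent protein (GFP). Dox switches the hairpin off, so that the endogenous PU.1 gene Spi1 can return. Cells were sorted as GFPhigh from untreated mice, GFPhigh-mid after 2 days of Dox, GFPmid after 4 days and GFPlow after 6 days, with 2 libraries in each of the 4 groups. All groups shared the p53-/- background and the integrated hairpin. Time on Dox and the GFP gate always changed together and cannot be told apart. The sample titles call the 2 libraries of a group technical replicates, whereas the series design speaks of duplicate mice, so p-values measure only the spread between these samples.

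PU.1 is an ETS family transcription factor that drives monocyte, granulocyte and B cell development, and its loss holds myeloid progenitors in an immature state. It activates genes by binding purine-rich sites with a GGAA core, and it can lower other genes by competing for or inactivating partner factors. In bulk RNA, fewer cells of a type and less RNA per cell cannot be told apart.

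Totals ran from 9262047 to 11213292 counts per library. Spi1 had 8.34 and 12.9 CPM in untreated cells, 14.8 and 15.6 CPM at day 2, 94.0 and 103 CPM at day 4 and 217 and 229 CPM at day 6. Of the progenitor markers, Elane had means of 8017 CPM in untreated cells, 10324 CPM at day 2, 5816 CPM at day 4 and 2790 CPM at day 6. From untreated cells to day 6, mean Ctsg went from 5229 to 545 CPM and mean Kit from 129 to 36.6 CPM. Prtn3 (1968 and 1469 CPM) and Mpo (185 and 177 CPM) differed less, and Cd34 had at most 1.95 CPM in any library. Mean Itgam went from 29.8 to 1677 CPM. The pan-leukocyte gene Ptprc had 680.0 and 682 CPM at day 6, against 28 and 26.6 CPM in untreated cells. Day 2 replicate 1 stood apart, because a single gene took 13.3% of its counts, against 0.957% to 1.73% for the leading gene of the other 7 libraries. The summed B cell markers were also higher there (898 CPM) than in day 2 replicate 2 (444 CPM). All members rest on both day 2 libraries. Leaving out day 2 replicate 1, the same rule would have taken 233 genes, leaving out day 2 replicate 2 it would have taken 207, and without untreated replicate 1 or 2 it would have taken 402 or 178.

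At day 2 the members stood at 13.3% to 69.8% of their untreated mean, with a median of 56.2%, and 30 of the 100 were at least 2-fold lower by their means. The ratio between the lower untreated library and the higher day 2 library had a median of 1.52, and it reached 6.13 for Adgrg1. Just inside the threshold of 1.4 lay Lmo7, Ak1 and Rbm20, each with a ratio of 1.4 after rounding. Just outside lay Ier3 (1.395), Zfp945 (1.393) and Socs3 (1.393). At the limit of 5 CPM, Pheta1 (5.03 CPM), Phlda1 (5.19 CPM) and Chrnd (5.27 CPM) were just inside, whereas Irx3 (4.98 CPM), Plxna3 (4.98 CPM) and Catsperz (4.65 CPM) were just outside. A further 128 genes met the ratio but not the minimum of CPM. Genes above 0.501 CPM in the untreated libraries alone are absent from the deposited genes. A gene lost by day 2 and not regained could therefore not be a member.

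Most members went on to lower levels. A gene is called below untreated at a day when the lower untreated library is at least 1.4 times both libraries of that day, and above when both are at least 1.4 times the higher untreated library; any other gene is called in between, even where its libraries do not overlap. At day 4, 78 members lay below untreated, against 11.5% of all genes tested, and 0 lay above, against 15.2%. At day 6, 78 again lay below untreated (19.2% of all genes tested) and 5 lay above (21.3%). The median member stood at 27.9% of its untreated mean at day 4 and at 19.4% at day 6. These comparisons share the untreated libraries with the rule, so the counts are descriptions only.

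Set against day 2, which the rule also used, 55 members lay lower still at day 4 (8.19% of all genes tested) and 11 lay higher (12.3%). At day 6, 59 lay below day 2 (17.9%) and 15 lay above it (20.0%). In all, 73 members were below untreated at both later days. For all genes tested this share was not taken, but it cannot exceed 11.5%, the share below untreated at day 4. Summed over the 100 members, the libraries held 2735 and 2876 CPM in untreated cells, 1513 and 1571 CPM at day 2, 1156 and 1227 CPM at day 4 and 1495 and 1485 CPM at day 6. The higher sum at day 6 than at day 4 lay in a few abundant genes. Txnip, Gpc1, Junb and Chst15, the 4 members with the largest increase in mean CPM, together held 640 and 637 CPM at day 6, against 286 and 363 CPM at day 4. The other 96 members held 855 and 848 CPM at day 6, against 870.4 and 865 CPM at day 4. At day 6, 61 members had a mean under 5 CPM and 33 had a mean under 1 CPM.

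**Figure D1:**
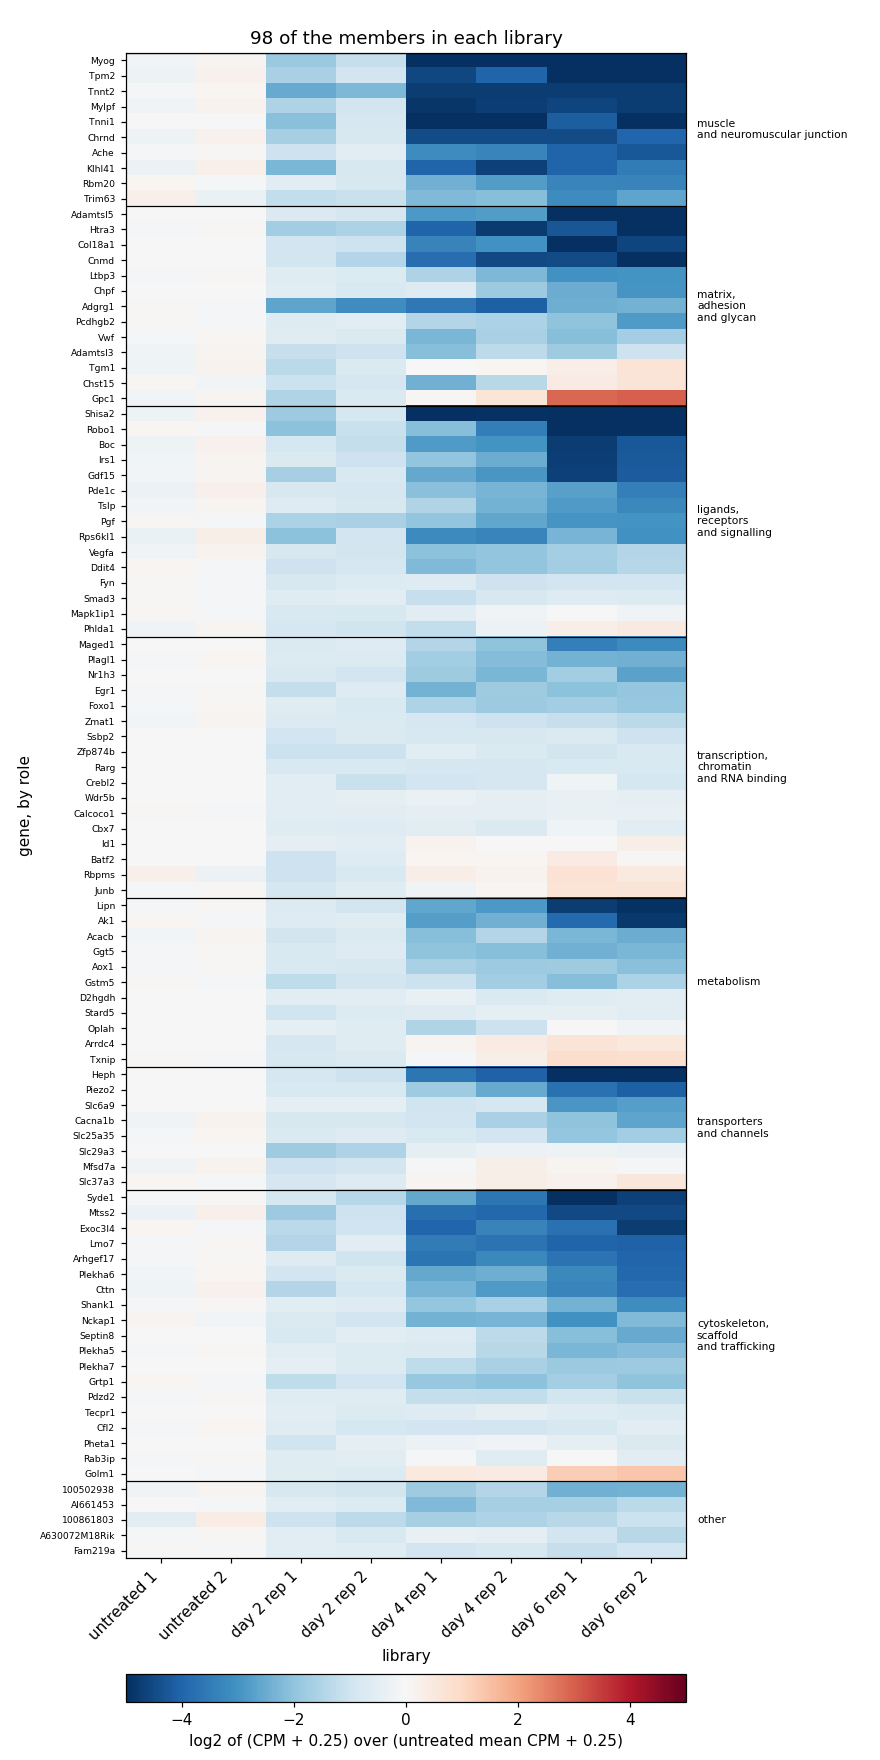
Level of 98 of the 100 members (rows, grouped by role) in each of the 8 libraries (columns), as log2 of CPM + 0.25 over the untreated mean + 0.25; blue is lower and red is higher than untreated. Values beyond 5 in size take the end colour. Most muscle rows are dark blue at days 4 and 6, and Gpc1, Golm1, Txnip, Arrdc4 and Junb are red in both day 6 libraries.

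Apart from their share in the TMM factors, the libraries of days 4 and 6 took no part in choosing the members, so the step between them could be tested. Of the 100 members 10 rose and 26 fell between day 4 and day 6 (edgeR quasi-likelihood test, adjusted p under 0.05 over all 12330 genes), against 15.9% and 14.0% of all genes tested. With TMM scaling the share that rose was thus below the background and the share that fell was above it. The median log2 fold change of day 6 over day 4 was −0.22 for the members and −0.02 for all genes tested. The number that fell depended on single libraries: leaving out day 4 replicate 1 gave 13 (5.77% of all genes in that fit), leaving out day 6 replicate 1 gave 17 (6.98%) and leaving out day 6 replicate 2 gave 14 (5.66%). In the same 3 fits 7, 9 and 7 members rose, against 8.0%, 9.97% and 8.09% of all genes, which is close to the background. Scaling by total counts moved the median of all genes by −0.17 on the log2 scale in this comparison and gave 8 rising and 31 falling members, and 881 rising (7.15%) and 2646 falling genes (21.5%) in all, against 1961 and 1728 with TMM. Under this scaling the rising share was not below the background.

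**Figure D2:**
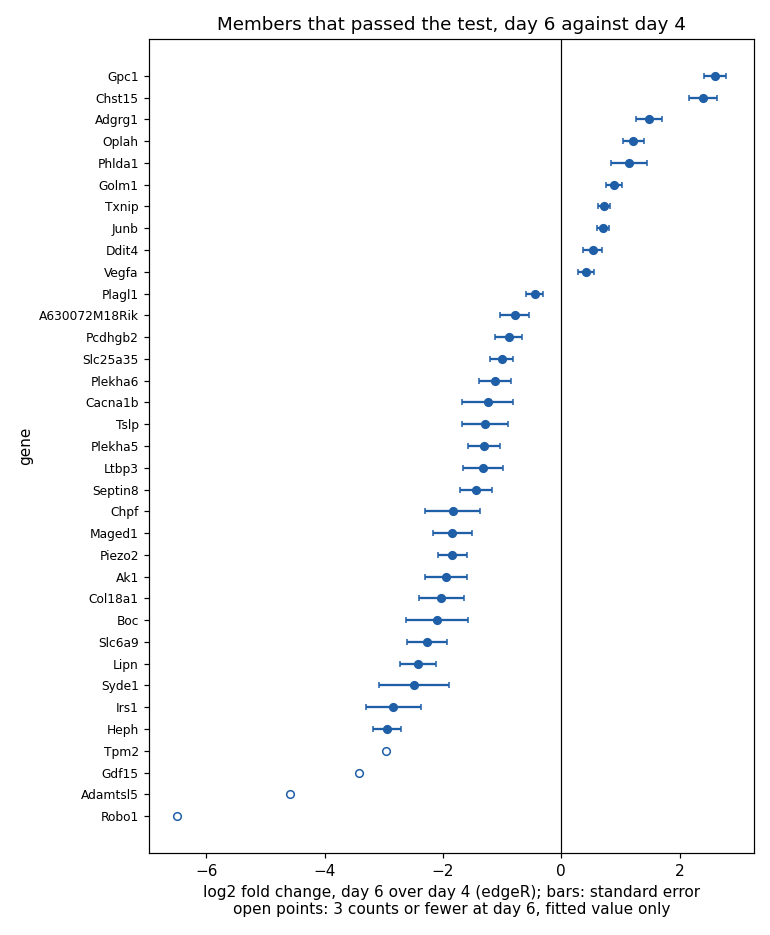
Log2 fold change of day 6 over day 4 for 35 of the 36 members that passed the edgeR test, with standard errors as bars; open points are genes with 3 counts or fewer at day 6, whose fitted value is no bound. Gpc1 (2.60) and Chst15 (2.40) lie farthest to the right, and among the filled points Heph (−2.94) and Irs1 (−2.84) lie farthest to the left.

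For the account by function, the members were put into 8 role groups after they were known. Counts below untreated at day 6 in these groups stand beside 78 of all 100 members and 19.2% of all genes tested. A group near the share of all members shows nothing particular to its role. Of 10 genes of skeletal muscle and the neuromuscular junction, all 10 lay below untreated at both day 4 and day 6, and their median member stood at 41.6% of untreated at day 2, 3.05% at day 4 and 2.42% at day 6. Several of them varied together between libraries. Myog, Mylpf, Tpm2, Klhl41, Tnnt2, Tnni1 and Chrnd were each higher in replicate 2 than in replicate 1, in untreated cells and at day 2. In untreated cells Trim63 and Rbm20 went the other way. The 10 genes are thus not 10 independent observations. From a list of 52 skeletal muscle genes, 22 were tested and 8 of these (36.4%) were members, against 0.811% of all genes tested. Listed genes such as Ckm, Myod1 and Acta1 are absent from the deposited genes, so their levels in untreated cells are not known. Muscle genes are normally switched on by myogenic bHLH factors such as MyoD and myogenin, which bind E-boxes in promoters and enhancers of contractile genes.

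Myog, which encodes myogenin, had 61.3 and 73.6 CPM in untreated cells, 18.7 and 30.2 CPM at day 2, 0.635 and 0.780 CPM at day 4 and 0.113 and 0.324 CPM at day 6. The day 2 libraries lay between the untreated and the later ones without overlap, and the later ones held 1 to 8 counts each. Mylpf, the fast-muscle regulatory light chain of myosin, had 40.6 and 52.2 CPM in untreated cells, 15.8 and 24.6 CPM at day 2, 1.36 and 1.56 CPM at day 4 and 1.69 and 1.51 CPM at day 6. It thus had the same course, but its day 6 libraries stayed at 15 and 14 counts. Strand was not given for the counting, and the spans of 15 members overlap another gene of the tables, so reads could not be assigned to them with certainty. These are Mylpf (with Septin1), Tpm2 (with Car9), Txnip, Syde1, Slc25a35, Oplah, Cbx7, Ltbp3, Nr1h3, Crebl2, Shank1, AI661453, Fam219a, A630072M18Rik and Pcdhgb2, the last of which lies in the protocadherin gamma cluster.

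Tpm2, the beta chain of tropomyosin, had 19.3 and 26.2 CPM in untreated cells, 7.27 and 11.5 CPM at day 2, 0.726 and 1.17 CPM at day 4 and 0.113 and 0.108 CPM at day 6. It was the member of this group that fell between day 4 and day 6, with 2 counts at day 6 and 20 at day 4 over both libraries, a ratio of 8.53 with a 95% counting interval of 2.07 to 75.2 (edgeR adjusted p = 0.0232). The call did not hold without day 4 replicate 2 (edgeR adjusted p = 0.0944) or without day 6 replicate 1 (0.103) or 2 (0.125).

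Tnnt2, troponin T of cardiac and embryonic muscle, had 70 and 82 counts in untreated cells, 8 and 13 at day 2 and 0 in all 4 later libraries. With 3 counts per group taken as the floor, it was at least 45.5-fold lower at day 4 and at least 38.8-fold lower at day 6. Tnni1, the slow troponin I, also had 0 counts at day 4, at least 57.5-fold lower than in untreated cells, as did Chrnd, the delta subunit of the muscle acetylcholine receptor, at least 37.4-fold lower. Klhl41, a kelch protein of the sarcomere, had 8.94 and 13.0 CPM in untreated cells, 2.08 and 6.19 CPM at day 2, 0.454 and 0.195 CPM at day 4 and 0.450 and 0.756 CPM at day 6. Its day 2 libraries differed more from each other than the higher of them did from the lower untreated library.

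Trim63, the ubiquitin ligase MuRF1 that degrades myofibrillar proteins, had 7.24 and 4.70 CPM in untreated cells, 2.42 and 2.60 CPM at day 2, 1.09 and 1.17 CPM at day 4 and 0.450 and 0.756 CPM at day 6. Ache, the acetylcholinesterase of the synapse and of red cells, stood at 58.3% of untreated at day 2 and 4.15% at day 6. Rbm20, a splicing regulator of titin, stood at 61.6% and 8.76%.

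The other muscle genes tested did not all follow. Mymk, the fusion factor myomaker, had 6.13 and 9.48 CPM in untreated cells, 1.61 and 5.56 CPM at day 2 and 0 counts at days 4 and 6, but its day 2 replicate 2 was too high for the rule. Myh3, the embryonic myosin heavy chain, was under the minimum of 5 CPM, with 0.923 and 1.62 CPM at day 2, against 3.24 and 4.86 CPM in untreated cells. Mef2c, a MADS box factor of muscle that is also used in myeloid and B cells, had between 929 and 1165 CPM in all 8 libraries. Of the 22 muscle genes tested, members included, 13 lay below untreated at day 6 (19.2% of all genes tested) and 2 lay above (21.3%). The 13 include the 8 listed members, which the rule chose by the same untreated libraries. Among the genes that were not members, Mymk, Myh3, Chrng and Tnnt3 lay below untreated at day 6. Tnni2 and Tnnt1 lay above, and Mef2c, Mef2d, Tpm1 and Fbxo32 lay in between. The summed markers of stroma and endothelium lay between 292 and 312 CPM in untreated cells, 330.4 and 423 CPM at day 2, 384 and 401 CPM at day 4 and 247 and 265 CPM at day 6, and their part in the muscle values was not tested.

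Promoter sequences were taken from RefSeq (GRCm38.p6, the build mm10) for the 250 bases before each annotated start, and 72 of the 100 members had at least 1. The E-box CAGCTG (a palindrome, so that both strands are read together) was present in 6 of the 8 muscle members with a promoter, in 17 of the 72 members (23.6%) and in 1303 of 9555 tested genes with a promoter (13.6%). A match is a description of letters and not a bound site. The 6 were Mylpf, Trim63, Klhl41, Tpm2, Tnni1 and Tnnt2, and they are included in the 17. A match before any annotated start of a gene counted. Muscle genes that were tested but were not members were not counted apart. The promoters of Mylpf, Trim63 and Klhl41 are shown as examples, with the E-box in capitals. It lies 51 to 46 bases before the start in Mylpf, 72 to 67 in Trim63 and 127 to 122 in Klhl41. The regions are chr7:127211358-127211607 (plus strand), chr4:134314870-134315119 (plus strand) and chr2:69669870-69670119 (plus strand).
Mylpf: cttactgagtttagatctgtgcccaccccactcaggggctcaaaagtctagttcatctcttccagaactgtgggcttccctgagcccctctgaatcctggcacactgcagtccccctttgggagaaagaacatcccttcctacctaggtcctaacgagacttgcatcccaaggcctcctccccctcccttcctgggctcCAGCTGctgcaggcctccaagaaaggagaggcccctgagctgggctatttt
Trim63: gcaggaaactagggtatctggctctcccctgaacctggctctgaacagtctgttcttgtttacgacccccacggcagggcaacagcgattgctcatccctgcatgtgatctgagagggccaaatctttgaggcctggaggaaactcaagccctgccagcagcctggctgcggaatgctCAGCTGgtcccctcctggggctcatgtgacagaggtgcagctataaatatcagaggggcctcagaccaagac
Klhl41: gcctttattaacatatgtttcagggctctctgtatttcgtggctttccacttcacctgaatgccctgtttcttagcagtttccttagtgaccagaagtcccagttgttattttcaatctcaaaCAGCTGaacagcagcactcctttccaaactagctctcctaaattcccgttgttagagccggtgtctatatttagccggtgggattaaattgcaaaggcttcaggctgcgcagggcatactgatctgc

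Among 13 genes of matrix, adhesion and glycans, 10 lay below untreated at day 6 and 1 lay above. Adgrg1, the adhesion G protein-coupled receptor GPR56 that marks stem and progenitor cells of the blood, had the largest separation of all members at day 2. It had 43.8 and 39.6 CPM in untreated cells, 6.46 and 4.67 CPM at day 2, 3.27 and 2.24 CPM at day 4 and 7.54 and 8.0 CPM at day 6. Its level at day 2 was thus 13.3% of the untreated mean, and it was the only gene among 30 tested of a stem and progenitor list to be a member (3.33%, against 0.811% of all genes tested). From day 4 to day 6 it rose (log2 fold change 1.48 ± 0.23 SE, adjusted p = 0.000711 by edgeR), although both day 6 libraries remained below the untreated ones.

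Of 19 tested genes of a cartilage, matrix and adhesion list, 3 were members (Adgrg1, Cnmd and Col18a1), and 8 lay below and 5 above untreated at day 6, against 19.2% and 21.3% of all genes tested. The 8 include these 3 members, which the rule chose by the same untreated libraries. Cnmd, the cartilage glycoprotein chondromodulin, had 30.3 and 29.8 CPM in untreated cells, 15.7 and 10.9 CPM at day 2, 1.91 and 1.07 CPM at day 4 and 1.13 and 0.648 CPM at day 6. Htra3, a secreted serine protease, had 18.9 and 20.9 CPM in untreated cells, 5.77 and 6.46 CPM at day 2, 0.999 and 0.488 CPM at day 4 and 0.788 and 0.108 CPM at day 6. Col18a1, the basement membrane collagen that contains endostatin, had 18.5 and 19.0 CPM in untreated cells, 9.46 and 8.89 CPM at day 2, 1.63 and 2.05 CPM at day 4 and 0.338 and 0.540 CPM at day 6. It fell from day 4 to day 6 (log2 fold change −2.03 ± 0.38 SE, adjusted p = 0.00241 by edgeR).

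The groups did not overlap between day 2 and the later days for these 3 genes. Adamtsl5, a secreted microfibril-associated protein, had 1 count at day 6 and 34 at day 4 over both libraries, a ratio of 29.0 with a 95% counting interval of 4.86 to 1178 (edgeR adjusted p = 0.000428). Chpf, a chondroitin polymerising factor, and Ltbp3, which stores latent TGF-beta in the matrix, fell too, by 1.84 and 1.32 on the log2 scale. Both calls were lost when day 4 replicate 1 (adjusted p = 0.151 for Chpf and 0.165 for Ltbp3 by edgeR) or day 6 replicate 2 was left out, and that of Ltbp3 also without day 6 replicate 1. Vwf, the von Willebrand factor of platelets and endothelium, had 13.6 and 15.8 CPM in untreated cells, 9.46 and 8.80 CPM at day 2, 2.81 and 4.58 CPM at day 4 and 3.15 and 4.32 CPM at day 6. The 11 megakaryocyte and platelet markers in the tables, Vwf among them, summed to 1016 and 871 CPM in untreated cells, 1007 and 973 CPM at day 2, 1244 and 1259.5 CPM at day 4 and 1824 and 1959 CPM at day 6. Of these, Thbs1 had means of 114 CPM in untreated cells and 702 CPM at day 6, and Nfe2 had 369 and 560 CPM. Plek had between 192 and 461 CPM, whereas Itga2b and Gp9 reached at most 1.51 and 2.92 CPM in any library. The part of cells with these markers in the Vwf values was not tested.

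Gpc1 and Chst15, which act in cell surface glycans, took another later course. Gpc1, the heparan sulfate proteoglycan glypican 1, had 12.7 and 15.3 CPM in untreated cells, 4.84 and 8.44 CPM at day 2, 14.6 and 21.4 CPM at day 4 and 104 and 114 CPM at day 6. It lay below untreated at day 2 only, and at day 6 it was 7.77-fold above the untreated mean and 16.4-fold above the day 2 mean. The rise from day 4 to day 6 passed the test (log2 fold change 2.60 ± 0.18 SE, adjusted p = 9.39e-06 by edgeR). Chst15, which adds sulfate to chondroitin sulfate chains, had 28.6 and 24.1 CPM in untreated cells, 12.3 and 14.8 CPM at day 2, 4.81 and 9.85 CPM at day 4 and 35.1 and 41.8 CPM at day 6. Both day 4 libraries were under the day 2 libraries and both day 6 libraries were over the untreated ones, though by less than the 1.4 times set for above, and the rise between them passed the test (log2 fold change 2.40 ± 0.24 SE, adjusted p = 5.10e-05 by edgeR).

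The 16 genes of ligands, receptors and signalling included 14 that lay below untreated at day 6. Vegfa, the main growth factor of blood vessels, had 129 and 165.1 CPM in untreated cells, 84.4 and 78.5 CPM at day 2, 35.8 and 37.0 CPM at day 4 and 44.7 and 52.6 CPM at day 6. Its relative Pgf, placental growth factor, had 6.30 and 5.79 CPM in untreated cells, 1.85 and 1.8 CPM at day 2, 1.36 and 0.780 CPM at day 4 and 0.563 and 0.540 CPM at day 6. Both were lower in each day 2 library than in either untreated library and lower again at day 4. Vegfa rose from day 4 to day 6 (log2 fold change 0.42 ± 0.13 SE, adjusted p = 0.0312 by edgeR), but not without either day 4 library, without day 6 replicate 2 or under scaling by total counts (edgeR adjusted p = 0.251), whereas Pgf did not pass the test (log2 fold change −0.95 ± 0.46 SE, adjusted p = 0.148 by edgeR).

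Boc, a Hedgehog co-receptor that also promotes myoblast differentiation, had 10.4 and 14.8 CPM in untreated cells, 6.69 and 5.39 CPM at day 2, 1.54 and 1.37 CPM at day 4 and 0.225 and 0.432 CPM at day 6. Its later libraries were all far below the untreated ones, and it fell from day 4 to day 6 (log2 fold change −2.10 ± 0.52 SE, adjusted p = 0.0111 by edgeR), except when day 4 replicate 1 (adjusted p = 0.0613 by edgeR) or day 6 replicate 1 (0.0854) was left out.

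Robo1, a receptor of the guidance factor Slit, had 8.51 and 7.38 CPM in untreated cells, 1.73 and 3.5 CPM at day 2, 1.63 and 0.488 CPM at day 4 and 0 and 0 CPM at day 6. With 0 counts at day 6 against 23 at day 4, it was at least 6.54-fold lower at day 6 (edgeR adjusted p = 0.00994), a call that was lost without day 4 replicate 1 (edgeR adjusted p = 0.0647) or either day 6 library (0.0513 and 0.0624). Irs1, the adaptor of the insulin and IGF1 receptors, had 10.9 and 13.3 CPM in untreated cells, 7.15 and 5.83 CPM at day 2, 2.90 and 1.95 CPM at day 4 and 0.225 and 0.432 CPM at day 6. It fell from day 4 to day 6 (log2 fold change −2.84 ± 0.47 SE, adjusted p = 0.00112 by edgeR). Gdf15, a stress cytokine induced by p53 and other pathways, had 1 count at day 6 and 15 at day 4, a ratio of 12.8 with a 95% counting interval of 1.97 to 538 (edgeR adjusted p = 0.0246), and it did not pass with DESeq2 (adjusted p = 0.0786) or without day 4 replicate 1 or either day 6 library.

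Shisa2, which retains Frizzled and FGF receptors in the endoplasmic reticulum, had 11.3 and 15.8 CPM in untreated cells, 3.69 and 7.27 CPM at day 2, 0.182 and 0.195 CPM at day 4 and 0 and 0.108 CPM at day 6. Tslp, an epithelial cytokine that acts on dendritic cells, fell from day 4 to day 6 (log2 fold change −1.29 ± 0.39 SE, adjusted p = 0.0274 by edgeR), a call lost without day 4 replicate 1 or either day 6 library. In contrast, Smad3, which carries TGF-beta signals to the nucleus, had 96.6 and 86.6 CPM in untreated cells, 60.2 and 61.0 CPM at day 2, 41.6 and 52.6 CPM at day 4 and 58.1 and 56.8 CPM at day 6. It lay below untreated on every later day, and its step from day 4 to day 6 did not pass the test (log2 fold change 0.29 ± 0.11 SE, adjusted p = 0.0696 by edgeR) except without day 4 replicate 2 (log2 fold change 0.47, edgeR adjusted p = 0.0113). Ddit4, which restrains mTORC1, stood at 51.9% of untreated at day 2, 23.0% at day 4 and 33.3% at day 6. Its rise from day 4 to day 6 (log2 fold change 0.53 ± 0.16 SE, adjusted p = 0.0268 by edgeR) was lost without day 4 replicate 1 or day 6 replicate 2 and under scaling by total counts.

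Phlda1, a pleckstrin homology domain protein that is induced by growth factor signalling, had 4.60 and 5.79 CPM in untreated cells, 2.77 and 2.51 CPM at day 2, 2.09 and 4.19 CPM at day 4 and 6.64 and 7.24 CPM at day 6. Both day 6 libraries lay over the untreated ones by less than 1.4 times, and the rise from day 4 passed the test (log2 fold change 1.15 ± 0.31 SE, adjusted p = 0.0156 by edgeR) except without day 4 replicate 1 or either day 6 library. Mapk1ip1, a protein named for its link to a MAP kinase, stood at 93.6% of its untreated mean at day 6.

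**Figure D3:**
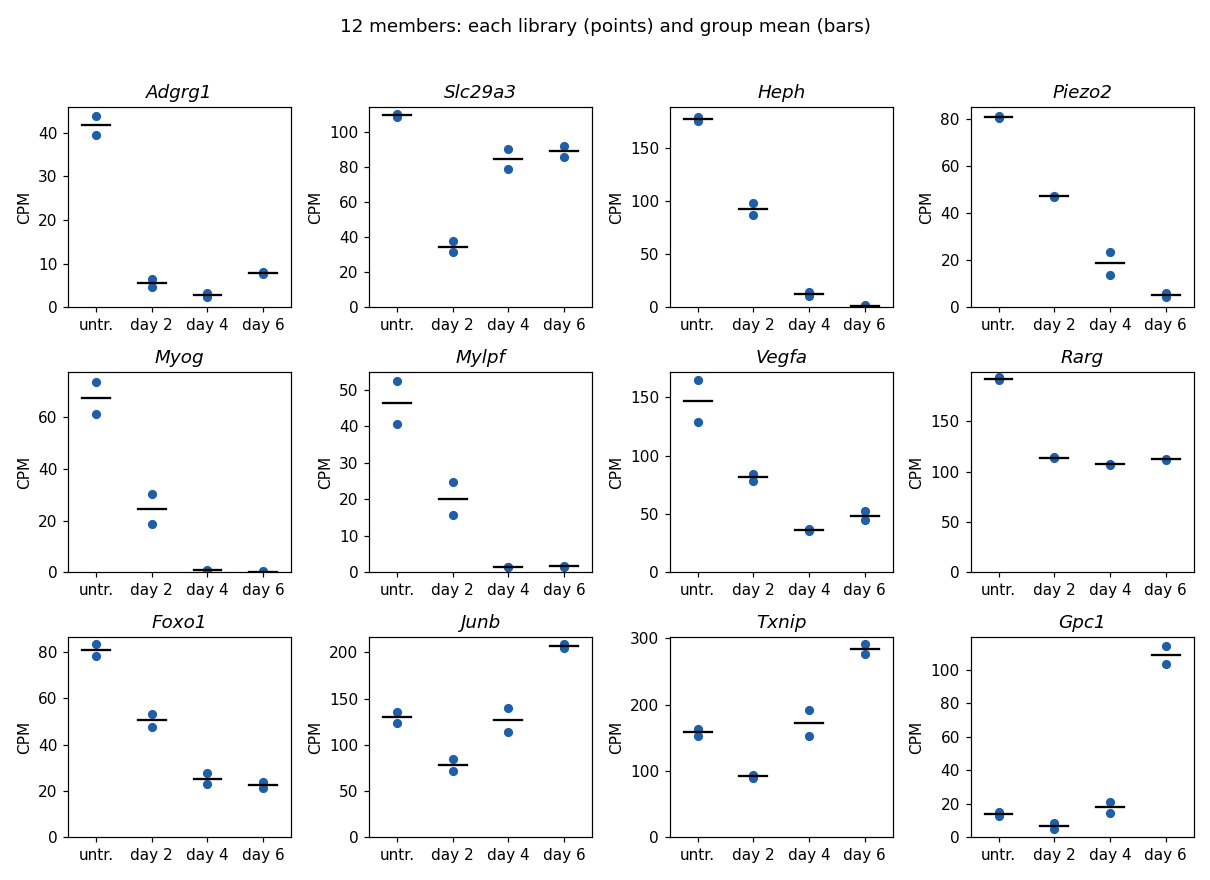
CPM (vertical axes, from 0) of 12 members in untreated, day 2, day 4 and day 6 cells; points are libraries and bars are the means of 2. Adgrg1, Heph, Piezo2, Myog, Mylpf, Vegfa, Rarg and Foxo1 stay low at days 4 and 6, Slc29a3 is lowest at day 2, and Junb, Txnip and Gpc1 lie above untreated at day 6.

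Among 18 genes of transcription, chromatin and RNA binding, 10 lay below untreated at day 6, 7 lay in between and 1 lay above. Its median member stood at 59.8% of untreated at day 2, 56.5% at day 4 and 56.6% at day 6. Rarg, a retinoic acid receptor, had 194 and 191 CPM in untreated cells, 114 and 114 CPM at day 2, 106 and 108 CPM at day 4 and 112 and 113 CPM at day 6. The level at day 2 was thus kept at days 4 and 6, and no change was called from day 4 to day 6 (log2 fold change 0.07 ± 0.07 SE, adjusted p = 0.486 by edgeR). Foxo1, a forkhead factor restrained by insulin signalling, had 78.2 and 83.1 CPM in untreated cells, 53.3 and 47.5 CPM at day 2, 27.6 and 22.8 CPM at day 4 and 24.0 and 21.4 CPM at day 6. It lay lower at each of days 2 and 4, and the step from day 4 to day 6 did not pass the test (log2 fold change −0.15 ± 0.12 SE, adjusted p = 0.375 by edgeR).

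Plagl1, an imprinted zinc finger factor that restrains growth, had 90.2 and 105 CPM in untreated cells, 61.0 and 60.4 CPM at day 2, 29.0 and 21.5 CPM at day 4 and 18.6 and 18.4 CPM at day 6. It fell from day 4 to day 6 (log2 fold change −0.45 ± 0.15 SE, adjusted p = 0.0378 by edgeR), but not with DESeq2 (adjusted p = 0.0575) or without day 4 replicate 1 or either day 6 library. Maged1, a MAGE family adaptor, fell from day 4 to day 6 (log2 fold change −1.84 ± 0.33 SE, adjusted p = 0.00203 by edgeR). Nr1h3, the liver X receptor alpha of macrophage cholesterol handling, was at 53.8% of untreated at day 2 and 20.4% at day 6.

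Egr1 and Junb, immediate early factors that respond within minutes to growth signals, parted after day 2. Egr1 had 51.6 and 57.3 CPM in untreated cells, 23.5 and 35.0 CPM at day 2, 10.3 and 15.9 CPM at day 4 and 12.9 and 13.9 CPM at day 6. Junb, a component of AP-1, had 123 and 136 CPM in untreated cells, 71.5 and 84.7 CPM at day 2, 114 and 139.7 CPM at day 4 and 209 and 204 CPM at day 6. Egr1 lay below untreated on all later days, whereas the day 4 libraries of Junb lay on either side of the untreated ones and it rose from day 4 to day 6 (log2 fold change 0.71 ± 0.11 SE, adjusted p = 0.000683 by edgeR). Of 25 tested genes of the immediate early list these were the 2 members (8.0%, against 0.811% of all genes tested), and 13 of the 25 lay above untreated at day 6 (21.3% of all genes tested). Fos, another AP-1 gene, had 306 and 534 CPM at day 2, against 477 and 582 CPM in untreated cells, so its groups overlapped.

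Id1, an inhibitor of bHLH factors, had 44.2 and 45 CPM in untreated cells, 31.4 and 30.0 CPM at day 2, 49.7 and 45.5 CPM at day 4 and 45.8 and 54.2 CPM at day 6. Batf2, an AP-1 partner of activated macrophages, had 5.79 and 5.70 CPM in untreated cells, 2.65 and 3.59 CPM at day 2, 6.17 and 6.24 CPM at day 4 and 7.66 and 5.94 CPM at day 6. Both were lower than untreated at day 2 alone, and all their day 4 and day 6 libraries lay over both untreated ones, by less than 1.4 times. Calcoco1 and Cbx7, a coactivator and a polycomb subunit, stood at 67.5% and 64.2% of untreated at day 2 and at 76.4% and 75.8% at day 6.

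Of 11 metabolic genes, 8 lay below untreated at day 6 and 2 lay above. The 2 were Txnip and Arrdc4, alpha-arrestins that limit glucose uptake and are switched on by the glucose-sensing factors MondoA and ChREBP through carbohydrate response elements. Txnip, which also binds thioredoxin, had 164.1 and 153 CPM in untreated cells, 89.6 and 94.7 CPM at day 2, 152 and 192 CPM at day 4 and 292 and 277 CPM at day 6. It was low at day 2 only and rose from day 4 to day 6 (log2 fold change 0.72 ± 0.10 SE, adjusted p = 0.000396 by edgeR). Arrdc4 had 12.4 and 12.7 CPM in untreated cells, 6.92 and 8.08 CPM at day 2, 14.0 and 17.0 CPM at day 4 and 20.0 and 18.2 CPM at day 6 and had the same order of means over the days, but its step from day 4 to day 6 did not pass the test (log2 fold change 0.30 ± 0.14 SE, adjusted p = 0.127 by edgeR). Reads of Txnip could not be told from those of the overlapping Gm15441, since strand was not given.

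The paired carbohydrate response element, written as CACGNG and CACGNG with 5 bases between them and searched on both strands, was found in the 250 bases before the start of Txnip, in 1 of 72 members (1.39%) and in 9 of 9555 genes (0.0942%). The single E-box CACGTG, a palindrome, was found in 8 of 72 members (11.1%), Arrdc4 among them, and in 954 of 9555 genes (9.98%). Of the other members with CACGTG, Mtss2, Gdf15, Irs1, Plagl1 and Ache lay below untreated at days 4 and 6. Cfl2 lay below at day 4 and in between at day 6, and Slc37a3 lay in between on both days. A link between a match and the course was not tested. The promoters of Txnip and Arrdc4 are shown because their genes took the same course, with the match in capitals. It lies 85 to 69 bases before the start in Txnip (chr3:96557707-96557956, plus strand) and 193 to 188 bases before it in Arrdc4 (chr7:68749239-68749488, minus strand). The letters GAGGAAGT, a core of many PU.1 sites, were in 0 of the 72 windows and in 306 of 9555 (3.20%). At that share 72 windows would hold few matches, and sites farther than 250 bases from a start were not searched, so nothing is read from it.
Txnip: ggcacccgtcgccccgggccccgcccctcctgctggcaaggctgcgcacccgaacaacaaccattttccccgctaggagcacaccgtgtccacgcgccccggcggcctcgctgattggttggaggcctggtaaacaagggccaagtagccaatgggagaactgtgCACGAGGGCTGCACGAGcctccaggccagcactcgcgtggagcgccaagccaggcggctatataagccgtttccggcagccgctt
Arrdc4: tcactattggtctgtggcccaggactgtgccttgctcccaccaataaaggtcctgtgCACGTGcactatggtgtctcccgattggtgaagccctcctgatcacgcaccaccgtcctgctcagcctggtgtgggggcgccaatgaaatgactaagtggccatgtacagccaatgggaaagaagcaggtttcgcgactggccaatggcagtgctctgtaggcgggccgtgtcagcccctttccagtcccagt

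No member came from the 33 tested genes of a cholesterol and lipid list. At the share of 0.811% among all genes tested, a list of this size could well hold none, so nothing is read from it. Lipn, a lipase best known from skin, had 26.1 and 28.4 CPM in untreated cells, 16.7 and 14.2 CPM at day 2, 4.27 and 3.51 CPM at day 4 and 0.788 and 0.648 CPM at day 6. It fell from day 4 to day 6 (log2 fold change −2.42 ± 0.30 SE, adjusted p = 0.000213 by edgeR). Ak1, an adenylate kinase of muscle and red cells, had 23.6 and 20.3 CPM in untreated cells, 14.0 and 14.5 CPM at day 2, 3.0 and 3.90 CPM at day 4 and 1.24 and 0.540 CPM at day 6. It fell too (log2 fold change −1.95 ± 0.35 SE, adjusted p = 0.00184 by edgeR). Acacb, the acetyl-CoA carboxylase that restrains fatty acid oxidation, was at 56.1% of untreated at day 2 and 17.7% at day 6. Oplah, the 5-oxoprolinase of glutathione turnover, had 15.6 and 15.3 CPM in untreated cells, 10.8 and 9.96 CPM at day 2, 5.27 and 7.31 CPM at day 4 and 15.5 and 13.7 CPM at day 6. It was lowest at day 4 and rose to about its untreated level at day 6 (log2 fold change 1.22 ± 0.18 SE, adjusted p = 0.000506 by edgeR).

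Of 8 transporters and channels, 5 lay below untreated at day 6, and the same 5 fell from day 4 to day 6, against 26 of all 100 members and 14.0% of all genes tested. Heph, hephaestin, a membrane ferroxidase that helps iron leave cells, had 175 and 179.7 CPM in untreated cells, 98.4 and 87.2 CPM at day 2, 14.2 and 10.4 CPM at day 4 and 1.46 and 1.73 CPM at day 6. Each day lay below the one before without overlap, and the fall from day 4 to day 6 passed the test (log2 fold change −2.94 ± 0.23 SE, adjusted p = 1.69e-05 by edgeR). Piezo2, a channel opened by touch and stretch, had 81.1 and 80.2 CPM in untreated cells, 47.0 and 46.9 CPM at day 2, 23.3 and 13.8 CPM at day 4 and 5.86 and 4.54 CPM at day 6. It fell in the same way (log2 fold change −1.84 ± 0.24 SE, adjusted p = 0.000289 by edgeR).

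Slc6a9, a glycine transporter also used by erythroid cells, had 5.79 and 5.79 CPM in untreated cells, 4.04 and 4.04 CPM at day 2, 2.81 and 3.12 CPM at day 4 and 0.563 and 0.648 CPM at day 6. It fell from day 4 to day 6 (log2 fold change −2.27 ± 0.34 SE, adjusted p = 0.000670 by edgeR). Slc25a35, a mitochondrial carrier, and Cacna1b, a neuronal calcium channel, fell by 1.01 and 1.24 on the log2 scale. The call of Cacna1b (adjusted p = 0.0472 by edgeR) was lost in 10 of 14 alternatives, among them the replicate block (0.0625) and DESeq2 (0.149). Slc29a3, a nucleoside transporter of lysosomes, took a different course. It had 110.3 and 109 CPM in untreated cells, 31.4 and 37.7 CPM at day 2, 79.1 and 90.5 CPM at day 4 and 92.0 and 85.9 CPM at day 6. Its day 2 libraries were the lowest of all 8, at 31.5% of the untreated mean, and its day 4 and day 6 libraries lay at 77.4% and 81.2%. Mfsd7a and Slc37a3, other membrane transporters, likewise stood at 50.2% and 59.0% at day 2 and at 104% and 132% at day 6. Of 201 solute carriers tested, 4 were members (1.99%, against 0.811% of all genes tested).

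The 19 genes of the cytoskeleton, scaffolds and trafficking included 16 that lay below untreated at day 6. Syde1, a GTPase activating protein, had 16 and 17.9 CPM in untreated cells, 8.99 and 6.19 CPM at day 2, 2.63 and 1.17 CPM at day 4 and 0.225 and 0.432 CPM at day 6. It fell from day 4 to day 6 (log2 fold change −2.49 ± 0.59 SE, adjusted p = 0.00874 by edgeR). The call was lost without day 4 replicate 1 (edgeR adjusted p = 0.0895) or day 6 replicate 1 (0.0747). Exoc3l4, related to an exocyst subunit, had 16.2 and 13.9 CPM in untreated cells, 5.77 and 7.36 CPM at day 2, 0.726 and 1.27 CPM at day 4 and 0.901 and 0.324 CPM at day 6. Arhgef17, a guanine nucleotide exchange factor, had 29.4 and 31.5 CPM in untreated cells, 19.3 and 15.2 CPM at day 2, 2.18 and 3.02 CPM at day 4 and 2.14 and 1.73 CPM at day 6. Both were depleted by day 4, and neither step from day 4 to day 6 passed the test.

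Cttn, the actin-branching protein cortactin, was at 43.3% of untreated at day 2 and 5.74% at day 6. The septin Septin8 and the pleckstrin homology proteins Plekha5 and Plekha6 fell from day 4 to day 6, with log2 fold changes of −1.44, −1.30 and −1.11. Plekha5 was not called without day 4 replicate 1 (adjusted p = 0.0525 by edgeR), nor Plekha6 without day 6 replicate 2 (0.110). Golm1, a Golgi membrane protein, was the exception, with 8.51 and 8.05 CPM in untreated cells, 5.30 and 5.03 CPM at day 2, 11.6 and 11.1 CPM at day 4 and 19.9 and 22.0 CPM at day 6. It was lower at day 2 and higher at days 4 and 6 than in untreated cells, and it rose from day 4 to day 6 (log2 fold change 0.88 ± 0.14 SE, adjusted p = 0.000713 by edgeR).

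The 5 remaining members were Fam219a, AI661453, A630072M18Rik and 2 IDs without a symbol. They stood at 43.1% to 67.2% of untreated at day 2 and 16.6% to 48.3% at day 6, and A630072M18Rik fell from day 4 to day 6 (log2 fold change −0.79 ± 0.24 SE, adjusted p = 0.0292 by edgeR), but not with DESeq2, without either day 4 library or without day 6 replicate 2.

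By later course the members fell into 5 kinds. Shares of all genes tested were not taken for these kinds, and the untreated libraries also chose the members, so the counts are descriptions only. The largest, 73 members, was below untreated at days 4 and 6. A further 5 (Chst15, Cbx7, Cfl2, Crebl2 and Oplah) were below at day 4 and in between at day 6, and 5 (Stard5, Tecpr1, A630072M18Rik, D2hgdh and Pheta1) were in between at day 4 and below at day 6. Another 12 were in between on both days, and 5 (Txnip, Arrdc4, Golm1, Gpc1 and Junb) were in between at day 4 and above at day 6. Of the 78 members below untreated at day 6, 59 were also below day 2, while 19, among them Adgrg1, Rarg, Ddit4 and Smad3, were not separated from it by 1.4 times. Both day 6 libraries of Adgrg1 still lay over its day 2 libraries, and those of Rarg, Ddit4 and Smad3 lay under theirs.

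**Figure D4:**
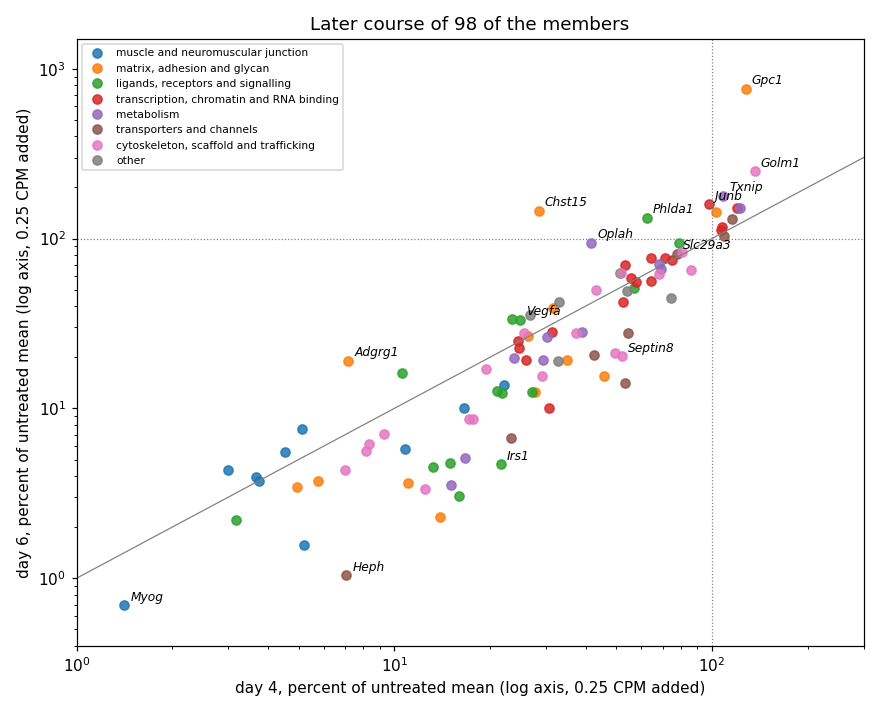
Day 6 mean (vertical) against day 4 mean (horizontal), both as percent of the untreated mean after adding 0.25 CPM, on log axes, for 98 of the 100 members coloured by role; dotted lines mark 100% and the diagonal marks equal levels. Most points lie in the lower left, with Myog and Heph lowest at day 6, and Gpc1 and Golm1 lie highest.

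No member came from the 27 S phase genes tested, the 24 of G2 and M, the 27 of ribosome biogenesis or the 13 primary granule, 27 interferon response or 21 NF-kB genes tested. At the share of 0.811% among all genes tested, lists of this size would hold less than 1 member each, so nothing is read from it. In the hypoxia and glycolysis list 2 of 39 tested genes were members, Vegfa and Ddit4 (5.13%). From the ATF4 and amino acid stress list 2 of 24 were members, Ddit4 and Slc6a9 (8.33%).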

How the data were processed

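RNA of sorted GFP-positive leukaemia cells was measured in 8 libraries. Per the file headers, the deposited tables give, for each Entrez gene ID, a count and a length of the gene; the counts are whole numbers that the authors did not normalise, and the length, identical in all tables, was not used. Per the submitters' processing notes, the build was mm10 and the tools were featureCounts, CASAVA 1.8.2, limma 3.22.0 and edgeR 3.8.2; aligner, settings and strand were not given in the sources used here. The third highest of the 8 CPM values of any gene is 0.501 or more, so lowly expressed genes are absent from the tables. A gene that passed this level only in the 2 untreated libraries is absent too, however high it was there. RefSeq matched 12555 of 12830 IDs to a symbol.

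In R 4.3.3 with edgeR 4.0.16, filterByExpr kept 12330 genes, libraries were scaled with TMM, and CPM gave the members and their course. Day 6 was tested against day 4 in 1 group means model of all 8 libraries (glmQLFit, glmQLFTest), with Benjamini-Hochberg adjustment over 12330 genes and a threshold of 0.05; the script was tested on simulated data. The common biological variation between libraries (BCV) was 8.34%; residual degrees of freedom were 4 and prior ones 7.08. DESeq2 1.42.0 and other settings were alternatives. The members, the gene lists and the rule for named genes were chosen with earlier results of these data known, and the role groups and the members named within them after their values were seen. The rule names the 12 members with the largest ratio and the 12 with the highest untreated mean, the 8 rising and 8 falling most from day 4 to day 6, the 6 highest at day 6 over untreated, up to 8 members per list, and the 3 genes on each side of each threshold. Libraries of a group differed by more than sampling noise (median chi-square over genes 0.715 to 5.75, against 0.455), so none was treated as a copy. Of the members, 2 enter the counts but are not reported here by name. Ratios of 1 to 3 counts have a 95% exact interval and groups with 0 counts a floor of 3 counts over the group; both cover counting error only.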

Additional observations from a re-analysis of the deposited data

How the results depend on the processing

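The number of members depended on every part of the rule. It was 240 when libraries were scaled by total counts, 365 and 35 with a ratio of 1.2 or 1.6 in place of 1.4, and 208 and 63 with a minimum of 1 or 10 CPM in place of 5, whereas RLE size factors gave 99 and TMM over all deposited genes gave 97. Leaving out a library, the range was 178 (without untreated replicate 2) to 402 (without untreated replicate 1). Total counts shifted the median of all genes by −0.17 at day 2, −0.24 at day 4 and −0.42 at day 6 against untreated on the log2 scale; under this scaling the median member stood at −0.40 from day 4 to day 6 and 2 members lay above untreated at day 6. With a ratio of 1.6, 3 lay above untreated at day 6, and with 1.2, 1 lay above at day 4. For day 6 against day 4, leaving out a library gave 7 to 11 rising and 13 to 25 falling members and a median of −0.28 to −0.18, with 8.0% to 17.7% of all genes rising and 5.66% to 15.7% falling in the same fits. DESeq2 gave 10 and 22 members (13.1% and 8.83% of all genes), and the 4 libraries of days 4 and 6 alone gave 10 and 23 (20.6% and 18.1%). With the replicate numbers as a block, 10 rose and 25 fell (15.2% and 13.1%), and 35 of the 36 calls were kept. The deviations of same-numbered libraries correlated at −0.138 to 0.210 between groups, and the highest value was that of untreated with day 2. With 2 libraries in each group, these values cannot show whether the numbers pair the samples. Over all alternatives, no member called in the main comparison changed direction, and over the 98 members with a symbol 1292 results kept their side of the threshold, 56 lost it and 7 gained it. Counts of members below or above untreated or day 2 kept within 1.5 times of the main count when a library was left out (5 to 7 above untreated at day 6, 78 to 81 below). Of the 58 members with a mean under 5 CPM at day 4, 18 were called, and of the 42 with a higher mean, 18 were called.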

Other observations

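Genes that met the ratio of 1.4 at day 2 but stayed under 5 CPM in untreated cells included more of the same functions, chosen here after their values were seen. Myh3, the embryonic myosin heavy chain, stood at 1.27 CPM at day 2, against 4.05 CPM in untreated cells, and Rbm24, a splicing factor of muscle, at 1.03 against 4.05 CPM. Rbm24 had 0 counts in all libraries of days 4 and 6. Col11a1, a fibrillar collagen of cartilage, stood at 1.96 CPM at day 2, against 4.52 CPM in untreated cells, and at 0.0540 CPM at day 6. Irx3, a homeobox factor, stood at 2.58 CPM at day 2, against 4.98 CPM in untreated cells, and at 0.218 CPM at day 6. Traf1, an adaptor of TNF receptors, stood at 1.38 CPM at day 2, against 4.22 CPM in untreated cells, and at 1.70 CPM at day 6.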
